A study of Bos taurus with 27 samples.

Results

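Members of one list of 10 genes that mark the lining cells of blood and lymphatic vessels were followed through the superficial cervical lymph nodes of cattle before and during tick feeding: VWF, ACKR1, ROBO4, PECAM1, CDH5, KDR, TEK, CD34, CD300LG and LYVE1. Each was found by its symbol in the array's probe table or by its current RefSeq symbol, and all 10 were measured, among 14495 named genes and 28927 features (named genes plus unnamed probes). They were read by 20 probes, from 1 for VWF, TEK and CD300LG to 3 for PECAM1, CDH5 and LYVE1, and the probes of a gene were averaged. The choice of the 10 used no measured value, but it was made with earlier results of these data known.

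Blood vessels are lined by endothelial cells that hold to one another through junction proteins, answer growth factors through receptor kinases and display adhesion molecules and chemokine-binding proteins to passing leukocytes. In a lymph node, specialised venules let lymphocytes enter from the blood, while lymphatic endothelium lines the sinuses through which fluid from the skin drains. The number of these cells and the state of the vessels are known to change when a node enlarges.

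The 27 arrays form 9 groups of 3: the zebu breed Brahman, the taurine dairy breed Holstein-Friesian and the composite breed Bonsmara, each sampled before any tick was attached (baseline), while larvae fed (larva) and while adult ticks fed (adult). The tick was Rhipicephalus microplus, and the tissue in every group was a biopsy of the superficial cervical lymph node, which drains skin of the neck and shoulder. Each array set 1 sample, in the dye Cy5, against the same pool of cattle lymph node RNA, in Cy3, so that each value is a log2 ratio, likely of sample over pool. Neither the direction nor the base of the ratio is written in the table: with the opposite direction, every rise and fall below would change places. Because the pool is also lymph node, a ratio gives no level above background and cannot show whether a marker of the tissue is present, and levels of different genes cannot be compared.

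Replicates are biological per the labels, which leave unsaid whether 1 animal gave more than 1 stage, so the p-values measure the spread between these arrays alone. No uninfested cattle were sampled at the later times (0 arrays), and the passing of time and the feeding of ticks cannot be told apart. In bulk tissue, more endothelial cells and more RNA per cell cannot be told apart either. Of the 27 arrays, 2 lay nearer another breed than their own over 50 features that separate the breeds: the array labelled Bonsmara larva replicate 3 (a distance of 0.606 from Holstein-Friesian and 1.10 from Bonsmara) and the array labelled Holstein-Friesian larva replicate 3 (0.377 from Brahman and 1.37 from Holstein-Friesian). In Brahman adult replicate 3, 9 of the 10 genes lay above their own mean, and the mean of the 10 genes, each centred on itself, was 0.895, the highest of the 27 arrays, against 0.348 in the next. Where leaving them out turned the direction of a difference given here, changed its call or moved it by over 1.5 times, the value without them is given too.

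Among the 10 genes, VWF and ACKR1 separated the larva stage from baseline. All 9 larva arrays lay above all 9 baseline arrays for these 2 of the 10 genes, against 0.0622% of all features. In the mean over breeds, 3 of the 10 genes rose at the larva stage, VWF by 1.00, ACKR1 by 0.65 and ROBO4 by 0.33 log2 units, where 1 is a doubling if base 2 holds. VWF and ACKR1 also rose within Bonsmara, and no other gene or comparison between stages or breeds passed the test for the 10 genes.

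**Figure D1:**
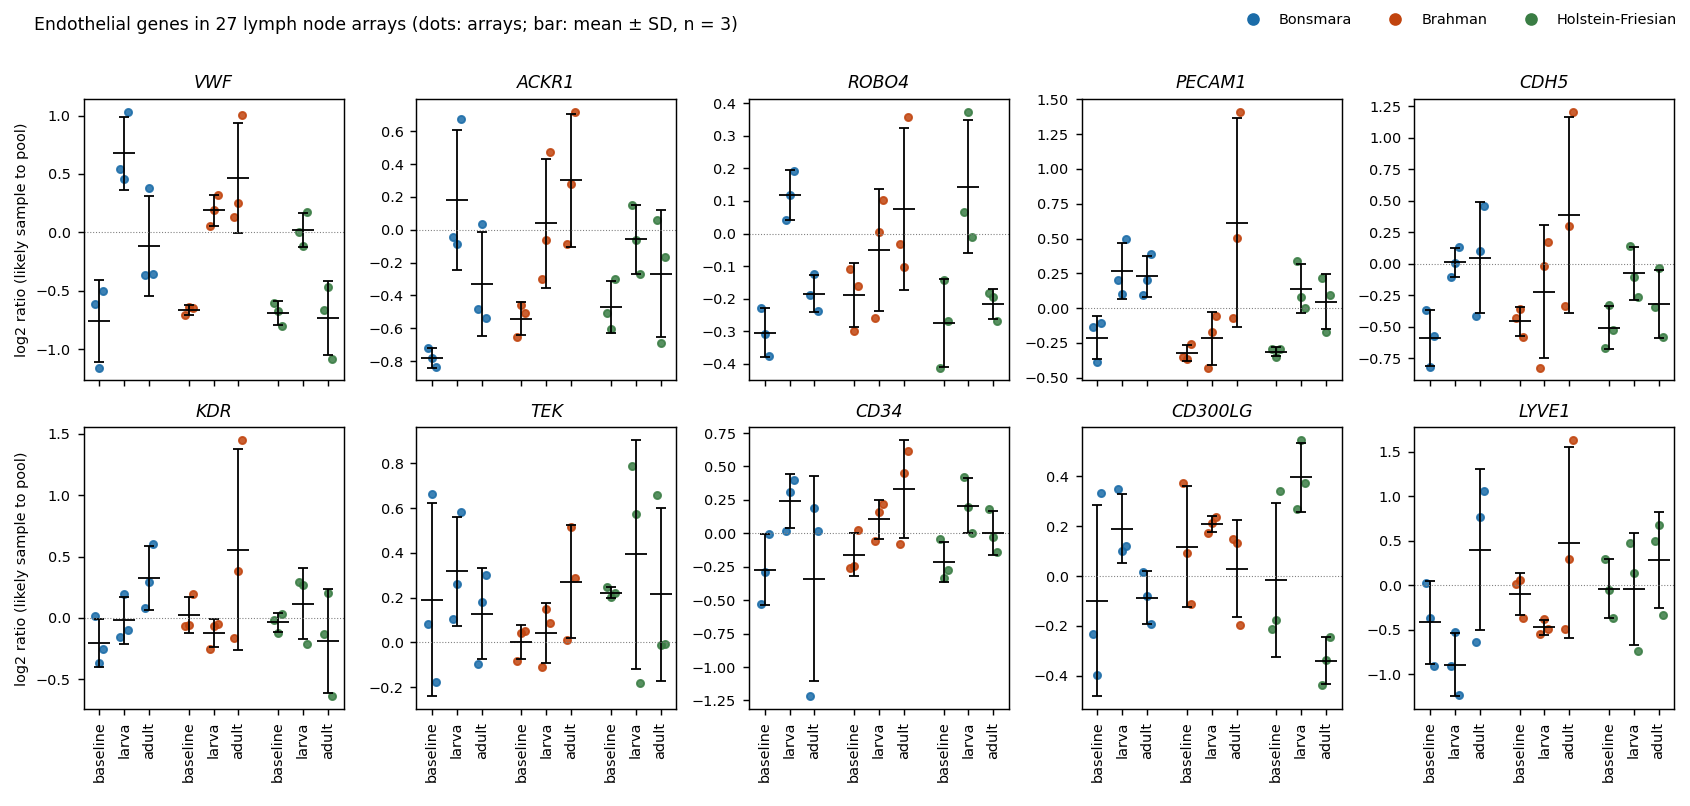
Log2 ratio to the pool (likely sample to pool) of each of the 10 endothelial genes in each array, by breed and stage. Dots are arrays, the horizontal bar is the group mean and the error bar 1 SD (n = 3). VWF lies between -1.16 and -0.50 in the baseline arrays and between -0.12 and 1.03 in the larva arrays.

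VWF encodes von Willebrand factor, a secreted glycoprotein that endothelial cells store in granules and that tethers platelets to damaged vessel walls. Its baseline log2 ratios were -0.62, -1.16 and -0.50 in Bonsmara, -0.71, -0.64 and -0.65 in Brahman and -0.60, -0.68 and -0.80 in Holstein-Friesian. At the larva stage they were 0.54, 0.45 and 1.03 in Bonsmara, 0.06, 0.19 and 0.32 in Brahman and 0.00, -0.12 and 0.17 in Holstein-Friesian. The baseline arrays thus lay together below the pool in every breed, and the larva arrays lay near the pool or above it, highest in Bonsmara and without overlap with baseline in any breed. The mean rise over breeds was 1.00 (SE 0.13, 95% interval 0.73 to 1.27, limma adjusted p = 4.58e-04). Without the 2 arrays nearer another breed it was 0.91 (adjusted p = 0.00223), and it passed the test in 27 of 27 fits that each left out 1 array.

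Among the breeds, the VWF difference at the larva stage was greatest in Bonsmara. Within Bonsmara VWF rose by 1.43 (SE 0.23, adjusted p = 0.00265), and by 1.26 without Bonsmara larva replicate 3 and Holstein-Friesian larva replicate 3 (adjusted p = 0.0229). The difference was 0.85 in Brahman (SE 0.23, adjusted p = 0.296) and 0.71 in Holstein-Friesian (SE 0.23, adjusted p = 0.668), neither past the threshold. The 3 Bonsmara larva arrays lay above the 3 larva arrays of each other breed. The rise in Bonsmara exceeded that in Holstein-Friesian by 0.72 (95% interval 0.05 to 1.39), and limma's test of that difference did not pass (adjusted p = 0.520, with 0.00691% of features called).

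The VWF log2 ratios of the adult stage were -0.37, 0.38 and -0.36 in Bonsmara, 0.13, 0.25 and 1.00 in Brahman and -0.66, -0.47 and -1.09 in Holstein-Friesian. The Bonsmara and Brahman arrays lay above their own baseline arrays without overlap, whereas the Holstein-Friesian arrays overlapped theirs. The difference from baseline was 0.64 in Bonsmara (adjusted p = 0.318), 1.13 in Brahman (adjusted p = 0.165, and 0.86 without Brahman adult replicate 3) and -0.04 in Holstein-Friesian (95% interval -0.52 to 0.43). The contrast of Brahman with Holstein-Friesian at this stage was 1.20 (95% interval 0.73 to 1.67), with no overlap, and fell short of the threshold (adjusted p = 0.0889). Without Brahman adult replicate 3 it was 0.93 (adjusted p = 0.242), and without the 2 arrays nearer another breed it stayed at 1.20 and passed (adjusted p = 0.0416). The corresponding difference of responses was 1.17 (SE 0.32, 95% interval 0.50 to 1.84, adjusted p = 0.864), or 0.90 without Brahman adult replicate 3, and the breed by stage F test of VWF gave an unadjusted p of 0.00313 and an adjusted p of 0.584 in limma.

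Ordered by group mean, VWF ran from Bonsmara larva (0.68 ± 0.31, SD, n = 3) through Brahman adult (0.46 ± 0.47), Brahman larva (0.19 ± 0.13), Holstein-Friesian larva (0.02 ± 0.15) and Bonsmara adult (-0.11 ± 0.43). Below these lay Brahman baseline (-0.67 ± 0.04), Holstein-Friesian baseline (-0.69 ± 0.10), Holstein-Friesian adult (-0.74 ± 0.32) and Bonsmara baseline (-0.76 ± 0.35). Of the 8 neighbouring pairs in this order, 7 overlapped, and the break lay between Bonsmara adult and Brahman baseline. By mean, the Holstein-Friesian adult group sat among the baseline groups, Brahman adult among the larva groups and Bonsmara adult between larva and baseline groups.

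VWF is also made by megakaryocytes and carried by platelets. Of 6 platelet genes, 0 passed limma's test in the mean larva comparison, their median difference was -0.04, and the platelet chemokines PF4 and PPBP differed by 0.03 and 0.04. The median of the platelet list stayed between -0.22 and 0.19 in all 27 arrays. In Holstein-Friesian adult minus baseline PF4 differed by 1.99 (SE 0.60, limma adjusted p = 0.876) and PPBP by 0.06. The listed platelet genes GP1BB, GP9, GP6 and TREML1 were not measured. The part of platelets in the VWF values was not tested.

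ACKR1 encodes the atypical chemokine receptor 1, known on the endothelium of venules, where it binds chemokines without the usual signalling, and on red cells. Its baseline log2 ratios were -0.72, -0.78 and -0.84 in Bonsmara, -0.65, -0.46 and -0.51 in Brahman and -0.51, -0.61 and -0.30 in Holstein-Friesian. At the larva stage they were -0.04, -0.09 and 0.67 in Bonsmara, -0.30, -0.06 and 0.47 in Brahman and 0.15, -0.06 and -0.27 in Holstein-Friesian. The larva arrays lay higher in every breed, with no overlap, but the lowest larva array and the highest baseline array both read -0.30. The mean rise was 0.65 (SE 0.14, 95% interval 0.37 to 0.93, adjusted p = 0.0172), and 0.60 without the 2 arrays nearer another breed (adjusted p = 0.0235). It passed in 27 of 27 fits without 1 array, but not when each array was scaled to one interquartile range (0.62, adjusted p = 0.0717).

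Within Bonsmara, ACKR1 rose by 0.96 at the larva stage (SE 0.23, adjusted p = 0.0457). This call rested on few arrays: without Bonsmara larva replicate 3 and Holstein-Friesian larva replicate 3 the difference was 0.71 (adjusted p = 0.149), and it passed in 10 of 27 fits that left out 1 array. The difference was 0.58 in Brahman (adjusted p = 0.466) and 0.41 in Holstein-Friesian. At the adult stage the arrays read -0.48, 0.04 and -0.54 in Bonsmara, -0.09, 0.28 and 0.72 in Brahman and 0.06, -0.69 and -0.17 in Holstein-Friesian. Brahman stood highest, with all 3 arrays above its baseline, and the Holstein-Friesian arrays reached beyond their baseline range on both sides. The adult difference averaged 0.50 over breeds (SE 0.14, adjusted p = 0.203) and was 0.84 in Brahman (adjusted p = 0.236), or 0.64 without Brahman adult replicate 3. Of 8 erythroid genes, 0 passed limma's test in the mean larva comparison, with a median difference of -0.07, HBB at -0.11 and HBA at -0.29 (SE 0.28). The median of that list stayed between -0.18 and 0.07 in all arrays. The part of red cells in the ACKR1 values was not tested. The 2 ACKR1 probes correlated at 0.90 over the arrays, and each passed on its own, at 0.87 (adjusted p = 0.0153) and 0.43 (adjusted p = 0.0373).

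ROBO4 encodes an endothelial receptor of the roundabout family, known in mouse for keeping vessels stable and limiting leak. Its baseline arrays ran from -0.41 through a median of -0.27 to -0.11, its larva arrays from -0.26 through 0.07 to 0.37, and its adult arrays from -0.27 through -0.18 to 0.36. Of 9 larva arrays, 8 lay above every baseline array, and the exception was Brahman larva replicate 1. The mean rise at the larva stage was small, at 0.33 (SE 0.07, 95% interval 0.18 to 0.48, adjusted p = 0.0220), with 0.42 in Bonsmara, 0.14 in Brahman and 0.42 in Holstein-Friesian. Without the 2 arrays nearer another breed it was 0.34 (adjusted p = 0.0256). It passed in 24 of 27 fits that left out 1 array, and missed without Brahman larva replicate 2, Brahman larva replicate 3 or Holstein-Friesian baseline replicate 1. Neither of its 2 probes passed alone (0.29, adjusted p = 0.0840, and 0.37, adjusted p = 0.0633). ROBO4 at the adult stage differed from baseline by 0.15 (adjusted p = 0.437), and Brahman adult replicate 3 was its highest adult array.

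The junction genes PECAM1 (CD31, which links neighbouring endothelial cells and is also on platelets and leukocytes) and CDH5 (VE-cadherin, the cadherin of endothelial junctions) did not pass the test at either stage. PECAM1 read -0.14, -0.39 and -0.11 at baseline, 0.20, 0.11 and 0.49 at the larva stage and 0.10, 0.20 and 0.39 at the adult stage in Bonsmara. In Brahman it read -0.35, -0.36 and -0.26 at baseline, -0.43, -0.17 and -0.05 at the larva stage and -0.07, 0.50 and 1.41 at the adult stage. In Holstein-Friesian it read -0.29, -0.35 and -0.29, then 0.34, 0.08 and just below 0, then 0.22, -0.17 and 0.10. Infested and baseline arrays did not overlap in Bonsmara and Holstein-Friesian at either stage, whereas in Brahman they overlapped at the larva stage and not at the adult stage.

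The mean PECAM1 difference from baseline was 0.35 at the larva stage (SE 0.13, adjusted p = 0.247) and 0.58 at the adult stage (SE 0.13, 95% interval 0.31 to 0.85, adjusted p = 0.112). One array weighed on the adult value: without Brahman adult replicate 3 it was 0.45 (adjusted p = 0.109), and the Brahman value went from 0.94 (adjusted p = 0.192) to 0.54. Leaving out Brahman adult replicate 1 instead, the lowest of that group, moved the mean to 0.69 and past the threshold (adjusted p = 0.0084), together with that of VWF, at 0.63 (adjusted p = 0.0449). PECAM1 also passed in the mean of larva minus baseline when Brahman adult replicate 3 was left out (0.35, adjusted p = 0.0499). CDH5 differed from baseline by 0.42 at the larva stage (SE 0.17, adjusted p = 0.283) and by 0.56 at the adult stage (SE 0.17, adjusted p = 0.235). Its Brahman adult arrays read -0.34, 0.30 and 1.21, the widest spread of its 9 groups, and without the highest of them the Brahman difference went from 0.85 to 0.44.

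KDR and TEK encode receptor tyrosine kinases: KDR is the main receptor through which vascular endothelial growth factor drives vessel growth, and TEK (TIE2) is the angiopoietin receptor. KDR baseline arrays ran from -0.37 through a median of -0.06 to 0.19 over the breeds, and its mean difference at the larva stage was 0.06 (95% interval -0.26 to 0.39, adjusted p = 0.897), or 0.13 without the 2 arrays nearer another breed. Its adult arrays were 0.08, 0.29 and 0.60 in Bonsmara, -0.16, 0.39 and 1.45 in Brahman and -0.13, 0.20 and -0.64 in Holstein-Friesian. All 3 Bonsmara adult arrays lay above the Bonsmara baseline arrays, while the other breeds overlapped. The mean adult difference was 0.30 (adjusted p = 0.462), and 0.16 without Brahman adult replicate 3, whose removal took the Brahman value from 0.53 to 0.09. TEK differed by 0.11 at the larva stage (adjusted p = 0.759, and 0.16 without the 2 arrays nearer another breed) and by 0.07 at the adult stage, and its arrays overlapped baseline in every breed.

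CD34 encodes a sialomucin of endothelium, blood progenitors and some stromal cells that can carry ligands for L-selectin on high endothelial venules. Its larva arrays were 0.01, 0.31 and 0.40 in Bonsmara, -0.06, 0.16 and 0.22 in Brahman and 0.42, 0.20 and 0.01 in Holstein-Friesian. These lay above the baseline arrays without overlap in Bonsmara and Holstein-Friesian, by narrow gaps, and the mean difference was 0.40 (SE 0.15, adjusted p = 0.225). The adult difference was 0.22 (adjusted p = 0.579), with Bonsmara adult arrays at -1.22, 0.19 and 0.02. Its 2 probes correlated at only 0.53, and in Bonsmara adult replicate 1 one probe read -2.40 and the other -0.03, so the CD34 level of -1.22 in that array rests on 1 probe.

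CD300LG encodes nepmucin, known in mouse as a mucin-like protein of high endothelial venules and capillaries. Its larva arrays were 0.35, 0.10 and 0.12 in Bonsmara, 0.17, 0.21 and 0.24 in Brahman and 0.27, 0.55 and 0.37 in Holstein-Friesian. Its adult arrays were 0.02, -0.08 and -0.19 in Bonsmara, 0.15, 0.13 and -0.20 in Brahman and -0.44, -0.34 and -0.24 in Holstein-Friesian. Every adult array lay below every larva array of its own breed, and the largest gap was in Holstein-Friesian. The mean of adult minus larva was -0.40 (SE 0.10, 95% interval -0.60 to -0.19, adjusted p = 0.0953), just outside the threshold, and -0.36 without Brahman adult replicate 3. The contrast with baseline was 0.26 at the larva stage (SE 0.10, adjusted p = 0.243) and -0.13 at the adult stage (adjusted p = 0.602).

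LYVE1 encodes a hyaluronan receptor of lymphatic endothelium that some macrophages also carry, and it followed another course. Its baseline arrays read 0.03, -0.36 and -0.90 in Bonsmara, 0.01, 0.06 and -0.36 in Brahman and 0.30, -0.05 and -0.36 in Holstein-Friesian. At the larva stage they read -0.91, -0.53 and -1.24, then -0.55, -0.38 and -0.49, then 0.48, 0.14 and -0.74, in the same breed order, and at the adult stage -0.63, 0.77 and 1.06, then -0.49, 0.29 and 1.63, then 0.50, 0.68 and -0.33. Brahman larva arrays lay just below Brahman baseline, and each adult group held both low and high arrays. The mean difference from baseline was -0.29 at the larva stage (95% interval -0.82 to 0.25, adjusted p = 0.677) and 0.57 at the adult stage (SE 0.26, adjusted p = 0.403). The larva value was -0.11 without the 2 arrays nearer another breed, and the adult value was 0.38 without Brahman adult replicate 3. The step from larva to adult was 0.86 (SE 0.26, 95% interval 0.32 to 1.39, adjusted p = 0.187), and 0.66 without Brahman adult replicate 3.

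Macrophage genes moved at the same step, and their part in the LYVE1 values was not tested. In the mean of adult minus larva, 4 of 12 macrophage genes rose, MRC1 by 1.48, CD163 by 1.12, C1QB by 0.85 and C1QA by 0.72, with a list median of 0.58. The median of the macrophage list ran from -0.66 to -0.48 in Bonsmara larva arrays and from 0.01 to 0.69 in Bonsmara adult arrays. It ran from -0.81 to -0.46 and from -0.13 to 0.74 in Brahman, and from -0.31 to -0.01 and from -0.16 to 0.49 in Holstein-Friesian. The lymphatic list median ran from -0.09 to -0.01 in Bonsmara larva arrays and from -0.03 to 0.11 in Bonsmara adult arrays. In Brahman it ran from -0.18 to -0.09 and from -0.07 to 0.37, and in Holstein-Friesian from -0.20 to 0.04 and from -0.18 to 0.04. The part of lymphatic endothelium in the LYVE1 step was not tested either. In the mean of larva minus baseline, a different comparison, 0 of 16 other lymphatic endothelial genes passed limma's test, with a median of -0.02. Among them were the transcription factor gene PROX1 (-0.16) and the chemokine gene CCL21 (-0.11). In the same comparison 35 of the 103 other endothelial genes, like LYVE1, had a difference below 0.

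**Figure D2:**
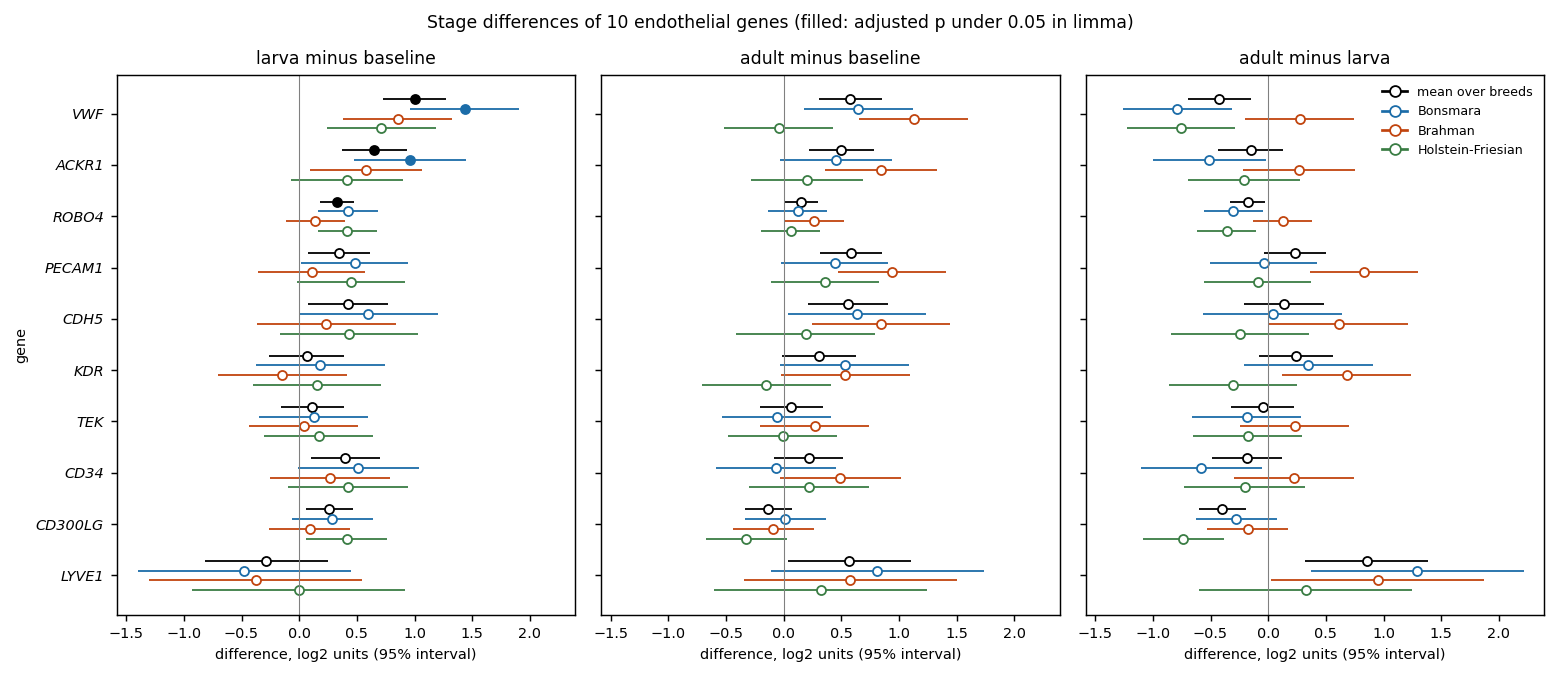
Differences in log2 units with 95% intervals for the 10 genes, larva minus baseline, adult minus baseline and adult minus larva, for each breed and the mean over breeds. Filled points passed an adjusted p of 0.05 in limma: VWF, ACKR1 and ROBO4 in the mean of larva minus baseline, and VWF and ACKR1 in Bonsmara.

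Counted over the 10 genes, 3 rose and 0 fell in the mean of larva minus baseline, against 1.21% of all features called in either direction and 0.684% called higher. Of the 10, 7 had an unadjusted p under 0.05. Here and below, the shares beside counts of genes called are of features called at the adjusted threshold. Counts at an unadjusted p have no share of features beside them and cannot be set against those shares. They therefore cannot show an excess in these genes over all features. Within Bonsmara 2 rose, against 1.11% of features, or 0.505% called higher. Limma called 0 of 10 within Brahman, against 0% of features called, and 2 of 10 had an unadjusted p under 0.05. It called 0 of 10 within Holstein-Friesian, against 0.00346% of features called, and 3 of 10 had an unadjusted p under 0.05. The breed by stage interaction called 0 of 10, against 0% of features called, so no response is shown here to differ between breeds. In that test 1 of 10 had an unadjusted p under 0.05.

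Array by array, 6 of the 10 genes lay above baseline without overlap in Bonsmara larva arrays, against 12.7% of features. The same 6 genes, VWF, ACKR1, ROBO4, PECAM1, CDH5 and CD34, did so in Holstein-Friesian, against 4.44%. In Brahman VWF and ACKR1 did so, against 5.79%, and LYVE1 lay below baseline without overlap, against 5.46%. Of the 10 genes, 8 had a positive larva difference in all 3 breeds, against 13% of features, the others being KDR and LYVE1. Without the 2 arrays nearer another breed 7 did, since TEK in Bonsmara then differed by -0.0062. The genes were chosen with results known, so these counts describe them and test nothing.

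For adult minus baseline limma called 0 of 10 genes in the mean over breeds, against 0.0346% of features called. It called 0 within Bonsmara (0.0311% of features called), 0 within Brahman (0%) and 0 within Holstein-Friesian (0%). At an unadjusted p under 0.05 there were 5 of 10 in the mean, 2 in Bonsmara, 5 in Brahman and 0 in Holstein-Friesian. Arrays lay above baseline without overlap for 4 genes in Bonsmara, VWF, ACKR1, PECAM1 and KDR, against 10.9% of features. They did so for 5 in Brahman, VWF, ACKR1, ROBO4, PECAM1 and CDH5, against 6.64%. In Holstein-Friesian they did so for PECAM1 alone, against 4.83%, and CD300LG lay below, against 5.02%. For 0 of 10 genes did all 9 adult arrays lie above all 9 baseline arrays, against 0.0553% of features, and for 5 of 10, ACKR1, ROBO4, PECAM1, CDH5 and LYVE1, the adult difference was positive in all 3 breeds, against 12.8%. Without Brahman adult replicate 3 this held for 4, since LYVE1 in Brahman went from 0.58 to -0.0019. CD34 missed this count in Bonsmara, where its mean was -0.34 at the adult stage and -0.27 at baseline. That adult mean holds replicate 1, at -1.22, a value that rests on 1 probe, while replicates 2 and 3 read 0.19 and 0.02. Larva and adult comparisons share the baseline arrays, so their values stand side by side here without a test of likeness.

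Between the infested stages limma called 0 of 10 genes in the mean over breeds, against 0.232% of features called. Within breeds it called 0 in Bonsmara (0.0484% of features called), 0 in Brahman (0.00346%) and 0 in Holstein-Friesian (0.00346%). At an unadjusted p under 0.05 there were 4 of 10 in the mean, 5 in Bonsmara, 4 in Brahman and 3 in Holstein-Friesian. Adult arrays lay below larva arrays without overlap for 3 genes in Bonsmara and the same 3 in Holstein-Friesian, VWF, ROBO4 and CD300LG, against 10.4% and 4.29% of features, and for CD300LG alone in Brahman, against 7.32%. VWF differed by -0.79 in Bonsmara (adjusted p = 0.233), -0.76 in Holstein-Friesian (adjusted p = 0.777) and 0.27 in Brahman, where it was 0.0040 without Brahman adult replicate 3. LYVE1 alone of the 10 had a positive difference in all 3 breeds, against 14.2% of features, with 1.29 in Bonsmara, 0.95 in Brahman and 0.32 in Holstein-Friesian. The Brahman value was 0.37 without Brahman adult replicate 3. Without the 2 arrays nearer another breed the Holstein-Friesian value was -0.03, and 0 of the 10 were then positive in all 3 breeds.

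Before tick attachment none of the 10 genes passed the test between breeds. Limma called 0 of 10 in each baseline pair of breeds. The share of features called was 0.152% for Brahman and Bonsmara, 0.0207% for Brahman and Holstein-Friesian and 0.225% for Bonsmara and Holstein-Friesian. Of the 10 genes, 0 had an unadjusted p under 0.05 in these pairs. ACKR1 arrays of Bonsmara lay below those of Brahman (7.42% of features higher in Brahman without overlap) and of Holstein-Friesian (7.76%), by 0.24 and 0.31 in the mean, and TEK arrays of Brahman lay below those of Holstein-Friesian (5.23%). Among larva arrays it called 0 of 10 in each pair, against 0% of features, with 2 unadjusted for Brahman and Bonsmara, 0 for Brahman and Holstein-Friesian and 1 for Bonsmara and Holstein-Friesian. VWF and PECAM1 lay lower without overlap in Brahman than in Bonsmara (6.33% of features), PECAM1 and CD300LG lower in Brahman than in Holstein-Friesian (4.12%), and VWF higher in Bonsmara than in Holstein-Friesian (4.29%).

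Among adult arrays all 10 genes had a higher mean in Brahman than in Holstein-Friesian, and 9 of 10 did without Brahman adult replicate 3, LYVE1 then differing by -0.38. Limma called 0 of them (0% of features), 7 had an unadjusted p under 0.05, and VWF, ROBO4 and CD300LG did not overlap between the breeds, against 8.58% of features. The comparison of Brahman with Bonsmara rested on that array: all 10 were higher in mean in Brahman with it, and 6 of 10 without it, when PECAM1 (-0.01), CDH5 (-0.07), KDR (-0.21) and LYVE1 (-0.50) were lower in Brahman. With it 0 were called (0%), 4 had an unadjusted p under 0.05 and ROBO4 did not overlap (7.55%). Between Bonsmara and Holstein-Friesian 0 were called (0.00346%) and 1 had an unadjusted p under 0.05, VWF at 0.62 (adjusted p = 0.561), which with CD300LG lay higher in Bonsmara without overlap (7.9%).

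**Figure D3:**
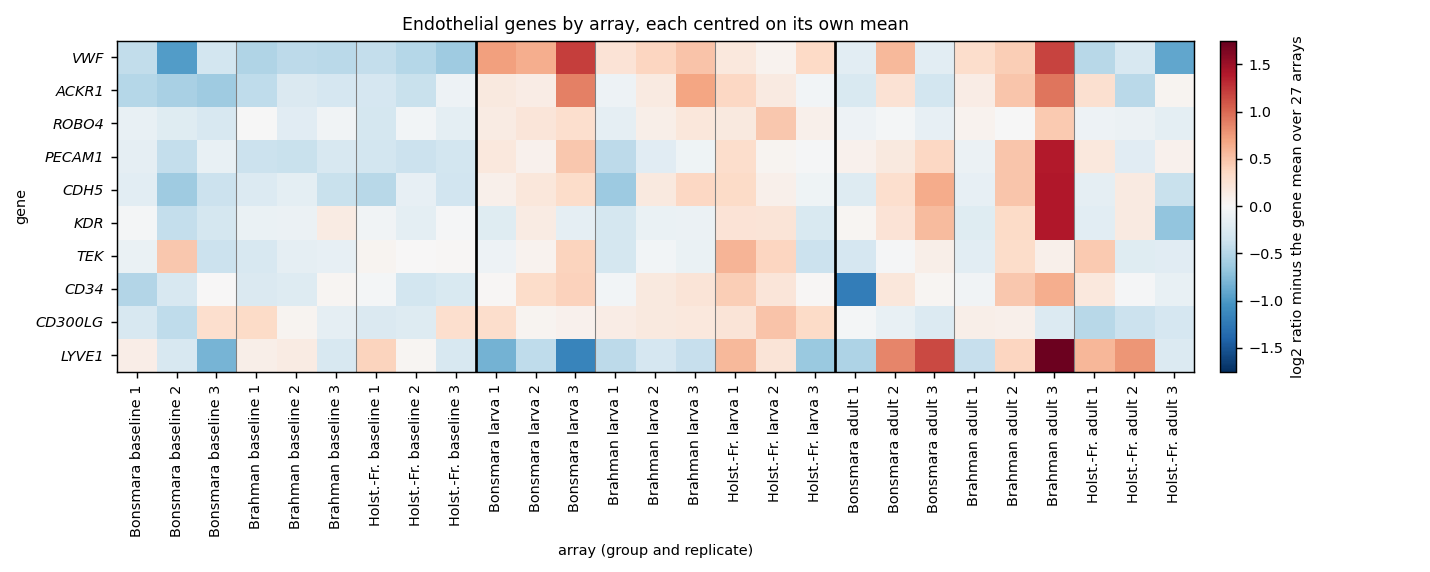
Log2 ratio of each endothelial gene in each array, minus that gene's mean over the 27 arrays, with arrays ordered by stage, breed and replicate and the colour scale centred on 0. Baseline arrays are mostly below the gene means for VWF and ACKR1, and Brahman adult replicate 3, with a mean of 0.895 over the genes, is the reddest column.

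The 10 genes varied to different degrees. LYVE1 had an SD of 0.65 over the 27 arrays, above that of 98.2% of features, and VWF one of 0.59, above 97.2%. ROBO4, at 0.20, was the least variable of them, above 46.0%. In the order of group means, all 8 neighbouring pairs overlapped for 7 of the 10 genes, and 7 of 8 did for VWF, ACKR1 and CD300LG.

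Over the 27 arrays, 40 of the 45 pairs among the 10 genes correlated above 0 and 19 reached 0.5, or 15 without Brahman adult replicate 3. Among VWF, ACKR1, ROBO4, PECAM1 and CDH5 the 10 pairwise correlations ran from 0.61 to 0.86, or from 0.46 to 0.75 without that array. CD34 correlated with these 5 at 0.55 to 0.68, or at 0.46 to 0.63 without that array. Correlations of ranks over the 27 arrays ran from 0.56 to 0.74 among the 5 and from 0.68 to 0.77 between CD34 and them. The 5 are thus not set apart from CD34. KDR correlated with CDH5 at 0.82, LYVE1 at 0.73 and PECAM1 at 0.72, and without that array at 0.68, 0.60 and 0.42. The correlation of CD300LG and LYVE1 was -0.45 (-0.43 without it), and that of VWF and LYVE1 was -0.01 (-0.29 without it). LYVE1, the gene of lymphatic endothelium, thus correlated more with KDR than with VWF. The arrays share the pool and span the stages, and the amount of vessel in each biopsy was not measured, so these correlations only describe the arrays.

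Among 14023 named genes, the gene most like VWF was PRSS23 (r = 0.87), followed by BGN, HSPG2, COL4A2 and CPXM1. EPAS1 was most like ACKR1 (r = 0.91), followed by ANO1, MYH11, ID1 and ACTA2. For ROBO4 it was LAMC1 (r = 0.80), for PECAM1 and CDH5 WWTR1 (0.89 and 0.92), and for KDR ADGRF5 (0.94). For TEK it was NID2 (0.71), for CD34 COL5A3 (0.82), for CD300LG ARHGAP24 (0.78) and for LYVE1 GPX3 (0.89). Without Brahman adult replicate 3 the value for PECAM1 and WWTR1 was 0.80, and for KDR and ADGRF5 0.88. WWTR1 was also most like the mean of the 10 genes (0.94, and 0.90 without that array).

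Other endothelial genes were set beside these from lists chosen by function. Of 103 measured, 6 rose and 0 fell in the mean of larva minus baseline, and 68 had a positive difference. They were CH25H (0.42, adjusted p = 0.00836), an oxysterol-forming enzyme found in high endothelial venules, EPAS1 (0.71, adjusted p = 0.0105), a hypoxia-inducible transcription factor, and CAV1 (0.70, adjusted p = 0.0148), the coat protein of caveolae. The other 3 were TFPI (0.29, adjusted p = 0.0275), an inhibitor of coagulation, AMOTL2 (0.28, adjusted p = 0.0336), a junction scaffold, and CLEC14A (0.42, adjusted p = 0.0381), an endothelial lectin-like protein. The CH25H mean covers unlike values: its larva difference was 0.83 in Bonsmara and lower by 0.84 in Brahman. Limma's test of that difference of responses did not pass (adjusted p = 0.256). By function, 2 of 13 adhesion and junction genes, 2 of 25 other surface, secreted and vesicle genes, 1 of 17 transcription factors and 1 of 11 high endothelial venule genes rose, and 0 of 21 angiogenic receptors and ligands and 0 of 16 lymphatic genes did. The median difference was 0.08 over the 103 genes, 0.34 over the 10 and -0.02 over all features.

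For adult minus baseline limma called 0 of the 103 genes in the mean over breeds, with 40 at an unadjusted p under 0.05. Of them 83 had a positive difference, with a median of 0.19, against 0.40 over the 10 genes (0.27 without Brahman adult replicate 3) and -0.02 over all features. VEGFA, a ligand of KDR, differed by 0.58 (SE 0.15, adjusted p = 0.161) and ANGPT2, a ligand of TEK, by 0.08 (adjusted p = 0.904).

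**Figure D4:**
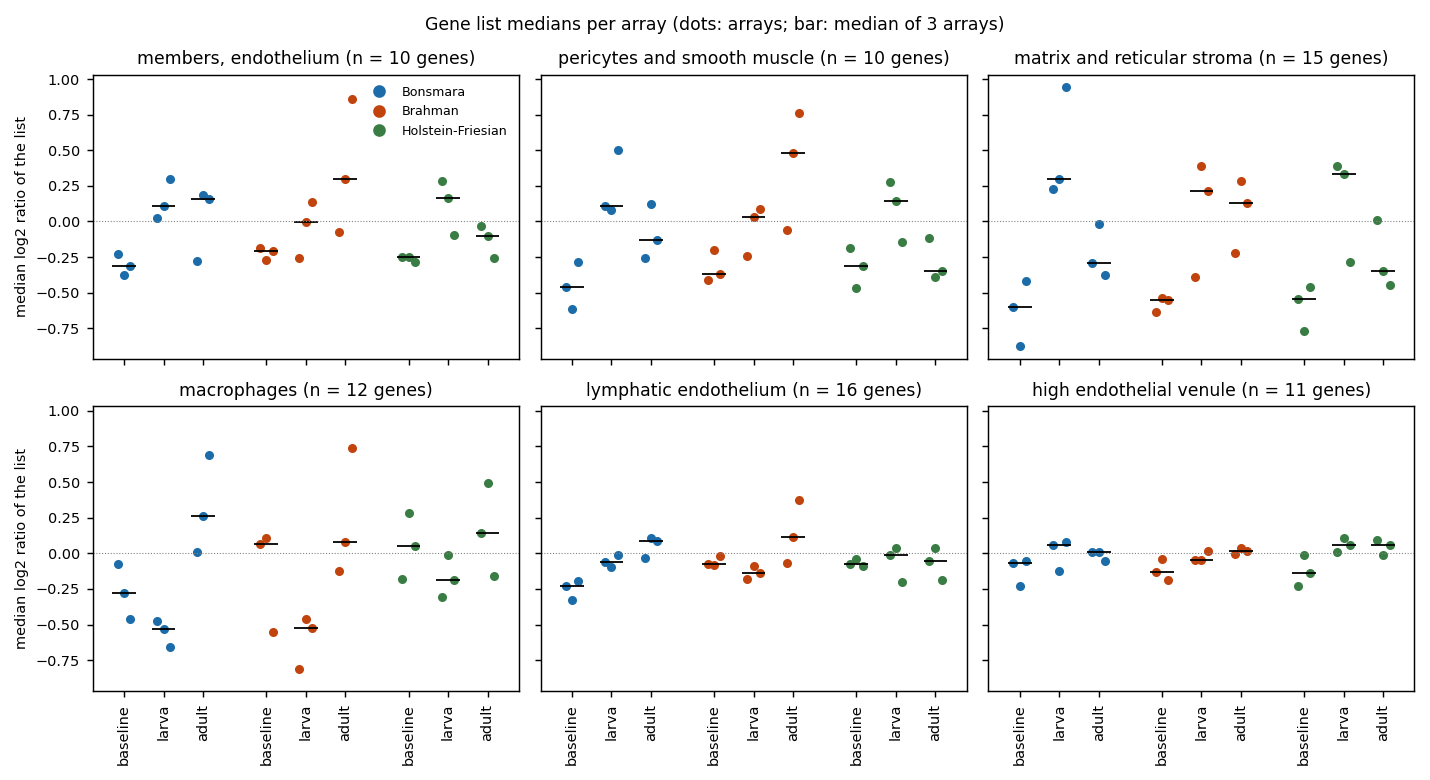
Median log2 ratio of 6 gene lists in each array, by breed and stage. Dots are arrays and bars the median of 3 arrays. The 10 endothelial genes, the pericyte and smooth muscle list and the matrix list lie low at baseline, and the macrophage list lies lowest at the larva stage in Bonsmara and Brahman.

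Genes of the cells around vessels moved alongside, and their part in the endothelial values was not tested. In the mean of larva minus baseline, 3 of 10 pericyte and smooth muscle genes rose, RGS5 by 0.99, DES by 0.63 and MYH11 by 0.51, with a list median of 0.51. Of 15 matrix and reticular stroma genes 11 rose, among them COL1A1 by 1.99, COL4A1 by 1.38 and COL4A2, a chain of the basement membrane collagen, by 1.25, with a list median of 0.67. Over the arrays of a group, the pericyte median ran from -0.61 to -0.29 at Bonsmara baseline and from 0.08 to 0.50 at Bonsmara larva, and the matrix median from -0.88 to -0.42 and from 0.23 to 0.94. The median of the 10 endothelial genes ran from -0.38 to -0.23 and from 0.03 to 0.30 in the same groups.

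In the other breeds these lists had the following levels. The pericyte median ran from -0.41 to -0.20 at Brahman baseline, from -0.24 to 0.09 at Brahman larva and from -0.06 to 0.76 at Brahman adult, where the endothelial median ran from -0.08 to 0.86. In Holstein-Friesian it ran from -0.47 to -0.19, from -0.14 to 0.28 and from -0.39 to -0.11, where the endothelial median ran from -0.28 to -0.25, from -0.10 to 0.28 and from -0.26 to -0.04. Among blood cells, 3 of 9 T cell genes fell in the mean of larva minus baseline, ZAP70 by 0.61, CD3G by 0.48 and LCK by 0.41, and SIGLEC1 alone of 12 macrophage genes fell, by 1.18. Limma called 0 of 7 pan-leukocyte genes, with PTPRC at -0.07.

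**Figure D5:**
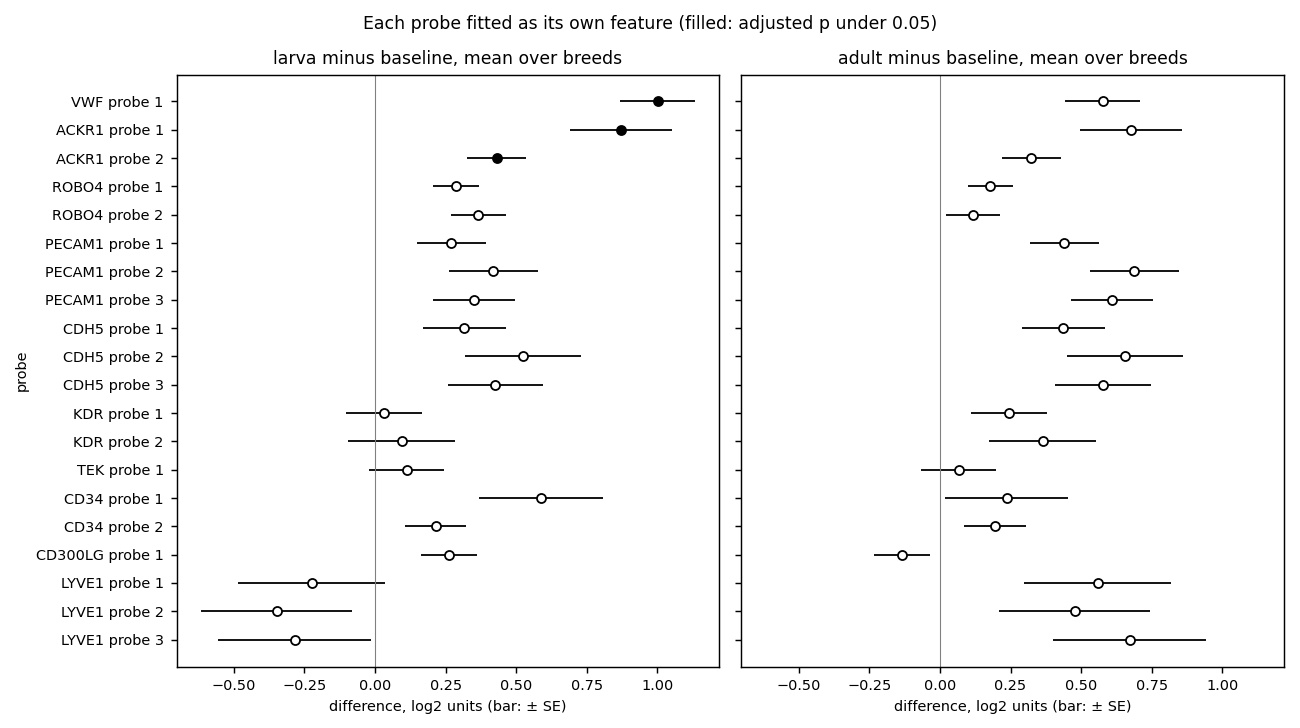
Differences in log2 units with SE for each of the 20 probes fitted as a feature of its own, larva minus baseline and adult minus baseline in the mean over breeds. Filled points passed an adjusted p of 0.05: the VWF probe and both ACKR1 probes at the larva stage.

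Probes of 1 gene agreed in sign in both mean comparisons with baseline. The 3 LYVE1 probes differed by -0.22, -0.35 and -0.28 at the larva stage and by 0.56, 0.48 and 0.67 at the adult stage. The 3 PECAM1 probes differed by 0.44, 0.69 and 0.61 at the adult stage, and the CD34 probes by 0.59 and 0.21 at the larva stage. VWF, TEK and CD300LG have 1 probe each, so their values have no second probe to set beside them.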

How the data were processed

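RNA from 27 lymph node biopsies was measured on 2-colour arrays. The deposited values are log2 ratios, likely of sample over pool, normalized by the authors before deposit, for 45220 probes with none missing. The submitters' processing notes name limma, whose version is not given in the sources used here, nor are the background and normalization steps. The scanner's intensities were not analysed here, which leaves signal over background unknown, and the number of arrays limits the precision. Array medians lay between -0.0095 and 0.0059.

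Names came from the probe table of the platform, updated through the RefSeq gene table (ARS-UCD2.0, names only): 30788 had 1 symbol, 14432 none and 0 several. ACKR1 is listed there under its older symbol DARC. Probes of a gene were averaged, with no filter, giving 14495 genes and, with unnamed probes, 28927 features. Limma 3.58.1 in R 4.3.3 fitted 9 group means to all arrays (18 residual degrees of freedom), and p-values were adjusted by Benjamini-Hochberg over all features of each of 21 comparisons between groups, a breed by stage F test and 6 differences of responses, at a threshold of 0.05. The code was tested on simulated data.

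Whether replicate numbers pair samples is not settled by the arrays. Same-numbered arrays of a breed had correlated deviations (r over 0.1) in 7 of 27 pairs. The median r was 0.042 for arrays of the same number (-0.30 to 0.18) and -0.015 for arrays of different numbers (-0.19 to 0.28). By breed, r for the same number ran from 0.0034 to 0.18 in Brahman, -0.024 to 0.16 in Bonsmara and -0.30 to 0.15 in Holstein-Friesian. Alternatives were array scaling, quantile normalization, array weights, only the compared arrays, the median of probes, named genes alone, a robust prior, single probes and leaving out arrays. Leaving out 3 arrays together, Brahman adult replicate 3 and the 2 nearer another breed, was chosen after seeing the data. The 10 genes and the other gene lists were chosen with earlier results of these data known. Named genes were the 10, listed genes past the threshold (at most the 4 with the smallest p where more of a list passed), the first measured genes of other lists, and for likeness the highest Pearson correlations, leaving out provisional symbols. VEGFA, ANGPT2, PROX1 and CCL21 were named after their values were seen. No sequences are shown and promoters were not searched.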

Additional observations from a re-analysis of the deposited data

How the results depend on the processing

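Over the alternatives run, none of the 10 genes reversed a called difference. With the replicate block, 3 of 10 genes were called in the mean of larva minus baseline and 2 within Bonsmara, as without it. The block changed no other count of genes called in the comparisons fitted with it. Comparisons between breeds at a stage were not fitted with the block. The labels do not say whether arrays of the same number came from the same animal. The count of 2 in Bonsmara larva minus baseline was 1 with one interquartile range, 1 with quantile normalization, 1 without the 2 arrays nearer another breed, 1 without 3 arrays, 0 with only the compared arrays, which leave fewer degrees of freedom, and 1 to 2 when 1 array was left out. VWF (adjusted p = 0.0604) and ACKR1 (adjusted p = 0.0829) both missed there with only the compared arrays. In Bonsmara adult minus larva the count of 0 became 1 with one interquartile range, 1 with quantile normalization and 1 with array weights. In the mean of adult minus larva it became 2 with quantile normalization (VWF and CD300LG) and 1 with array weights. For Brahman minus Holstein-Friesian at the adult stage it became 1 with array weights, 1 without the 2 arrays nearer another breed, and 0 to 1 when 1 array was left out. When 1 array was left out, counts ran from 2 to 4 in the mean of larva minus baseline, from 0 to 2 in the mean of adult minus baseline, and from 0 to 1 in Brahman adult minus baseline and adult minus larva. ROBO4 in the mean of larva minus baseline missed with only the compared arrays (adjusted p = 0.0527). The share of all features called under each of these settings is not given here, so a changed count is no result about the 10 genes. The causes were not tested.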

Other observations

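Within Bonsmara, 4 of the 103 other endothelial genes rose from baseline to larva and 1 fell. CAV1, the caveolar coat protein, rose by 1.20, ACVRL1, an endothelial receptor of the TGF-beta family, by 0.84, CH25H by 0.83 and AMOTL2 by 0.54, while ESM1, a proteoglycan secreted by endothelium that is known as a marker of sprouting tip cells, fell by 0.66. CH25H also differed between breeds before tick attachment, where it was 0.73 log2 units higher in Brahman than in Bonsmara (limma adjusted p = 0.0326). In the mean of adult minus baseline CH25H differed by 0.30 (adjusted p = 0.193). Over the 103 genes, 77 had a positive difference in Bonsmara larva minus baseline, with a median of 0.17, against 0.45 over the 10 genes and -0.02 over all features.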
